A study of Mus musculus with 2 samples.

Results

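The 10 genes described here encode gap junction connexins and pannexins: Gja1, Gja4, Gja5, Gjb1, Gjb2, Gjc1, Gjd2, Gjd3, Panx1 and Panx2. They were chosen by name from the connexin and pannexin families, and all 10 were found among the 55536 annotated genes of the deposited tables, with 1 gene record each. Total RNA was sequenced from adrenal glands of female B6CASTF1/J mice (a first-generation cross of C57BL/6J and CAST/EiJ) aged 36 days, with 2 libraries of 300 ng RNA each, numbered as biological replicates 1 and 2 of a single group. The labels number the animals of the libraries differently in one field and alike in another, so whether they came from separate animals is not settled and the SDs may measure only the spread between libraries. The deposited gene tables held 35684781 expected counts in replicate 1 and 38701795 in replicate 2. With no second condition there is no test between groups and no p-value.

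Connexins assemble in rings of subunits that form a hemichannel, and hemichannels of neighbouring cells dock through their extracellular loops to form a gap junction channel that passes ions and small messengers such as cyclic AMP and calcium. Pannexins share the membrane topology of connexins but work mainly as single-membrane channels, among other things for the release of ATP. In the adrenal cortex gap junctions couple steroid-making cells, and in the rodent medulla they couple chromaffin cells electrically.

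A stretch of coding sequence is shown here because its cysteine spacing is shared by all 8 connexins of the set and by neither pannexin. It lies in the first extracellular loop, where 3 cysteines needed for docking are spaced by 6 and then 3 residues. The windows are 36 bases of the GENCODE M21 transcripts, 5′ to 3′, and the capitals mark the cysteine codons (TGT or TGC).
Gja1: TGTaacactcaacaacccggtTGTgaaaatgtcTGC
Gja4: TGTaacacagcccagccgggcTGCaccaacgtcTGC
Gja5: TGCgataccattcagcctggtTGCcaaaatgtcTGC
Gjb1: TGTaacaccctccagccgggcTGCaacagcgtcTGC
Gjb2: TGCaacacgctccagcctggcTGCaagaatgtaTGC
Gjc1: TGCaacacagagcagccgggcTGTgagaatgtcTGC
Gjd2: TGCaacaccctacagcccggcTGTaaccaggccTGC
Gjd3: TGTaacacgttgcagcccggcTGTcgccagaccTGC

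The codon spacing was found in 19 of the 20 connexin genes with a coding sequence in the annotation, the exception being Gje1, and in 0 of 3 pannexin genes. Over all 21584 coding sequences searched, 451 (2.09%) held it, so the spacing alone does not mark a connexin. Of the 36 positions, 16 were the same base in all 8 windows, 9 of them outside the cysteine codons. Over the 28 pairs of windows, between 21 and 31 of 36 bases were equal, and the Gja1 window was closest to that of Gjc1, with 28 equal bases. In GRCm38 each window lies within 1 coding exon of its gene. They are chr10:56387706-56387741 for Gja1 and chr3:97050788-97050823 for Gja5 on the plus strand, and chrX:101384324-101384359 for Gjb1, also on the plus strand. On the minus strand they are chr4:127312774-127312809 for Gja4, chr14:57100558-57100593 for Gjb2, chr11:102800984-102801019 for Gjc1, chr2:114011797-114011832 for Gjd2 and chr11:98982822-98982857 for Gjd3.

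This likeness did not extend to long identical runs. Of the stretches of 31 bases in the coding sequence of each member, 0 were also found in a transcript of another gene, on either strand. Over whole transcripts the share was 0% for Gja4, Gjb1, Gjb2, Gjd3 and Panx2, and at most 1.36% for 4 of the others. Gja5 was the exception at 16.6%, mostly stretches also found in transcripts of Zfp697 and Gpr89. In its main transcript, Gja5-201, 0.586% of such stretches were shared.

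Gja1 was by far the most abundant member. Gja1 encodes Cx43, the connexin best known from adrenal cortical cells, heart muscle and many other tissues. Levels are given in TPM, the share of a library's transcripts that a gene holds, which is scaled by transcript length and so can be compared between genes. Gja1 stood at 119 and 108 TPM in replicates 1 and 2, from 12718 and 12402 counts, for a mean of 114 ± 7.67 TPM (SD, n = 2). It held 88.4% and 87.8% of the summed TPM of the 10 genes in replicates 1 and 2. That was 25.5 and 23.4 times the next highest member in the same library. Of all protein-coding genes, 2.04% stood at or above its mean level. Steroid cortex markers were also high in both libraries, with a summed 11528 and 11496 TPM over 5 genes in replicates 1 and 2. The 4 adipocyte markers were also detected, at a summed 1344 and 1246 TPM in replicates 1 and 2. So were the 4 capsule and fibroblast markers, at a summed 172 and 152 TPM. The part of each of these cell types in the Gja1 level was not tested.

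**Figure D1:**
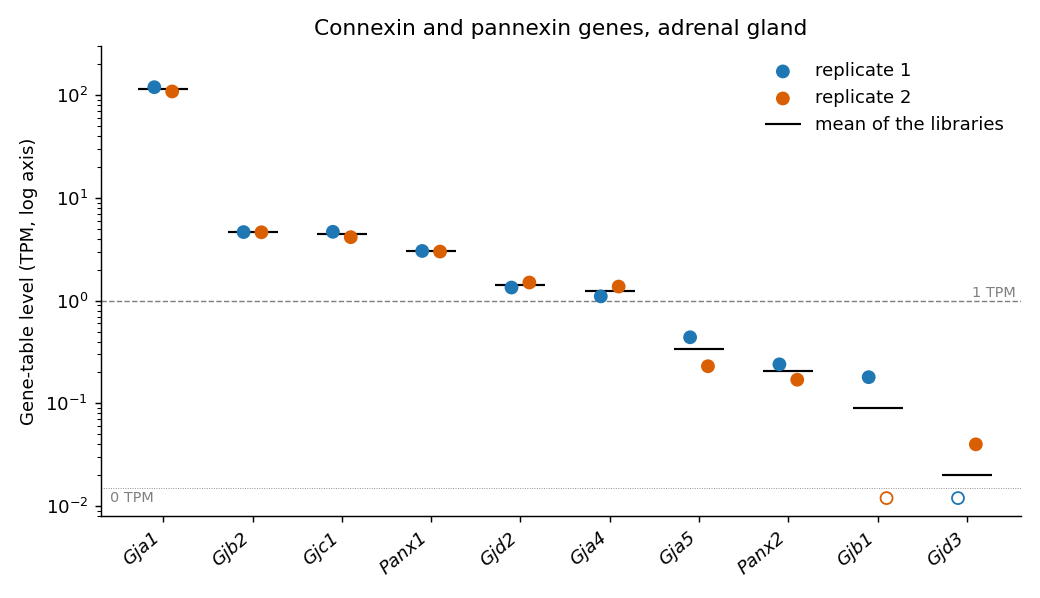
Level of each of the 10 genes in both libraries (TPM, log axis), with points for the libraries, bars for their mean, open points for 0 TPM and a dashed line at 1 TPM. Gja1 sits above 100 TPM, 5 genes lie between 1 and 5 TPM, and Gja5, Panx2, Gjb1 and Gjd3 lie below 1 TPM in both libraries.

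Counting a gene as detected at 1 TPM or more in both libraries, 6 of the 10 members were detected, against 53.0% of 22028 protein-coding genes. These were Gja1, Gjb2, Gjc1, Panx1, Gjd2 and Gja4. A share of 6 in 10 is near the background, and the set is too small to read more from it. The other 4 were below 1 TPM in each library.

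Gjb2, Gjc1 and Panx1 formed the next group. Gjb2 encodes Cx26, known from the inner ear, skin and liver. It stood at 4.64 and 4.62 TPM in replicates 1 and 2 (386 and 412 counts). Gjc1 encodes Cx45, known from the cardiac conduction system and vascular smooth muscle, and stood at 4.67 and 4.14 TPM in replicates 1 and 2 (318 and 303 counts). The library values of Gjb2 and Gjc1 overlapped, so their order is not resolved, and in the read-derived quantification it was the opposite, with Gjc1 at 7.79 and Gjb2 at 7.67 TPM on average. Smooth muscle and pericyte markers were all detected, at a summed 52.4 and 48.95 TPM over 4 genes in replicates 1 and 2. Whether these cells carry the Gjc1 RNA was not tested.

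Gjd2 was low but present in both libraries. It encodes Cx36, the connexin of electrical synapses between neurons, which is also known to couple chromaffin cells of the mouse adrenal medulla. Gjd2 stood at 1.34 and 1.5 TPM in replicates 1 and 2, from 134 and 161 counts. The ratio of its count shares between the libraries had an interval that includes 1 (0.875 to 1.404). The 5 chromaffin markers were all lower in replicate 2, at a summed 1480 and 1110 TPM in replicates 1 and 2. In whole tissue, fewer cells of a type and less RNA per cell cannot be told apart. Gjd2 overlaps A530058N18Rik, a noncoding gene on the opposite strand whose more abundant record stood at 0.38 and 0.58 TPM. That record starts at 114013602 of chromosome 2 and Gjd2 ends at 114013619. Whether counting used strand is not given in the sources used here, so Gjd2 counts from this short overlap at its first exon are uncertain.

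The vascular connexins Gja4 and Gja5 were both low. Gja4 encodes Cx37, found in endothelium and oocytes, and Gja5 encodes Cx40, found in arterial endothelium and the atria. Gja4 stood at 1.10 and 1.37 TPM in replicates 1 and 2 (63 and 84 counts), and its library values overlapped those of Gjd2. Gja5 stood at 0.44 and 0.23 TPM in replicates 1 and 2 (41 and 26 counts). Both Gja4 values were above both Gja5 values, although the deposited TPM intervals overlapped in 1 library. The 5 general endothelial markers were all detected, at a summed 125 and 128 TPM, whereas the 4 arterial markers summed to 7.71 and 6.14 TPM in replicates 1 and 2. Among the arterial markers, Efnb2 was highest, at 3.87 and 3.79 TPM in replicates 1 and 2. Sox17 was at 3.08 and 1.76 TPM, Hey1 at 0.69 and 0.52 TPM and Bmx at 0.07 TPM in each library. The part of the vessels in these levels was not tested.

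Gjb1 was seen in replicate 1 alone. Gjb1 encodes Cx32, the main connexin of hepatocytes and a channel of myelinating Schwann cells. It stood at 0.18 TPM in replicate 1, from 9 counts, and at 0 TPM in replicate 2. Its share of the library was 0.252 CPM (counts scaled to a fixed library total) in replicate 1 (exact 95% Clopper-Pearson interval 0.115 to 0.479). A count of 0 in replicate 2 allows up to 0.0953 CPM by the same kind of interval, or 0.0775 CPM taking 3 counts as the floor. The ratio of count shares, replicate 2 over replicate 1, had an exact 95% upper bound of 0.467. Such intervals and floors cover counting error only. All 6 liver markers were also lower in replicate 2, with a summed 30.8 and 1.72 TPM in replicates 1 and 2, and Alb at 22.7 and 1.34 TPM. The 4 Schwann and glial markers summed to 5.45 and 6.08 TPM in replicates 1 and 2. Skeletal muscle markers stood further apart, at a summed 213 and 1.49 TPM over 4 genes in replicates 1 and 2. The part of these cells in the Gjb1 difference was not tested.

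**Figure D2:**
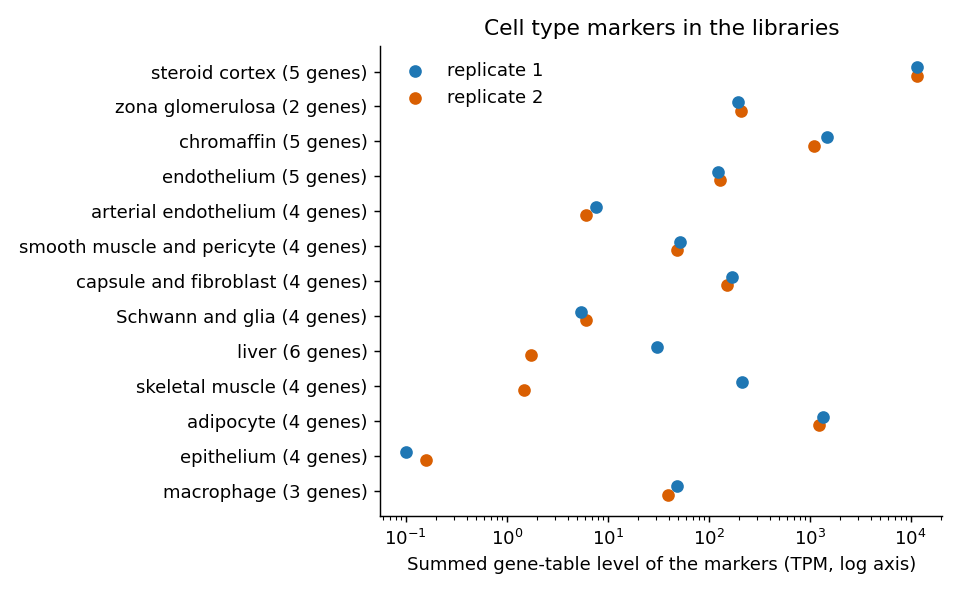
Summed level of each cell type marker list in both libraries (TPM, log axis), with 1 point per library. Liver and skeletal muscle markers stand far apart, with 30.8 and 1.72 TPM for liver in replicates 1 and 2, while steroid cortex, endothelial and smooth muscle markers lie close together.

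Gjd3, a connexin known in mice from the cardiac conduction system, was at the limit of the data. It had 0 counts in replicate 1 and 1 count in replicate 2 (0.04 TPM), so it was not detectable at this depth and no fold is given. A count of 0 in replicate 1 allows up to 0.103 CPM by the same kind of exact interval as for Gjb1. Taking 3 counts as the floor, the limit in replicate 1 is 0.0841 CPM.

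Of the pannexins, Panx1 was detected and Panx2 was not. Panx1, the ATP-permeable channel found in most tissues, stood at 3.04 and 3.00 TPM in replicates 1 and 2 (136 and 138 counts). Panx2, known mainly from the nervous system, stood at 0.24 and 0.17 TPM in replicates 1 and 2 (28 and 22 counts). The library values of Panx1 lay below those of Gjc1 and above those of Gjd2 without overlap. The deposited TPM intervals of Gjc1 (4.22 to 5.47 in replicate 1, 3.73 to 4.88 in replicate 2) and Panx1 (2.31 to 4.10, and 2.24 to 3.97) overlapped in replicate 2. By counts Panx1 was closer to Gjd2, which had 134 and 161. The 357-base entry Panx1-204 was given 1.37 and 1.13 TPM from 12.8 and 11.3 alignment-derived counts. The gap in TPM between Panx1 and Gjd2 thus depends partly on transcript assignment. Panx2 overlaps an antisense gene, 1810021B22Rik, that was itself at 2.67 and 3.39 TPM. That gene starts at 89071196 of chromosome 15, past the end of Panx2-203 at 89070907. All Panx2 counts were on Panx2-203, so they came from outside the overlap. Below Gja4, neighbours in the order (Gja5, Panx2, Gjb1 and Gjd3) had overlapping library values.

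The libraries were close for the members with enough counts to compare. Of the 10 genes, 5 had 200 or more summed counts (Gja1, Gjb2, Gjc1, Gjd2 and Panx1), and 0 of these 5 were 1.5-fold or more apart on TPM + 0.1, against 3.57% of 12280 genes past the same filter. Their median log2 ratio of replicate 2 over replicate 1 was -0.02, beside 0.04 over all those genes, and the median absolute log2 ratio was 0.14, beside 0.12. For Gja1 the share of counts in replicate 2 was 0.899 of that in replicate 1 (exact 95% interval 0.877 to 0.922), a difference larger than counting error. For Gjb2 the ratio was 0.984 (0.854 to 1.13), for Gjc1 0.879 (0.748 to 1.03), for Panx1 0.936 (0.733 to 1.19) and for Gjd2 1.11 (0.875 to 1.404), and these intervals all include 1.

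**Figure D3:**
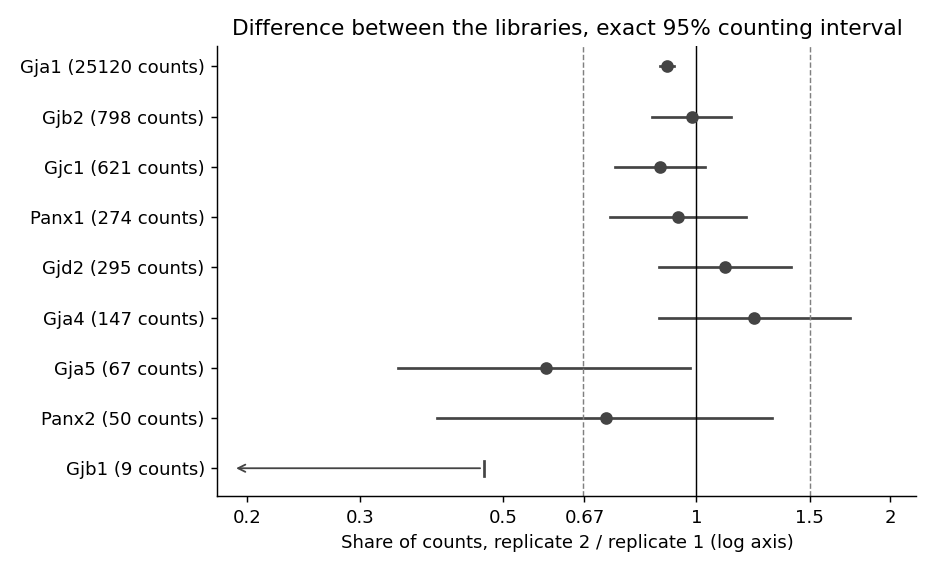
Ratio of each gene's share of counts in replicate 2 over replicate 1 (log axis), with exact 95% counting intervals, ordered by mean level and without Gjd3, which had 1 count. Dashed lines mark 1.5-fold either way. The arrow for Gjb1 runs down from its upper bound of 0.467, since it had 0 counts in replicate 2.

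With no filter on counts, 2 of the 10 members were 1.5-fold or more apart, Gja5 and Gjb1, both lower in replicate 2, against 18.3% of 26301 genes with any count. For Gja5 the log2 ratio was -0.71 on TPM + 0.1, which understates low genes, and the ratio of count shares was 0.585 (exact 95% interval 0.343 to 0.979). The direction for Gja5 depended on the quantification. In the read-derived table it stood at 0.765 and 1.09 TPM in replicates 1 and 2, a log2 ratio of 0.46. There the 405-base transcript Gja5-202 was given 0.51 TPM in replicate 2 from 1.48 estimated counts and 0 in replicate 1. Gja5-203 held 8.79% and 16.5% of the read-derived TPM in replicates 1 and 2 and was at 0 in the alignment-derived table. Without Gja5-202, Gja5 was at 0.765 and 0.579 TPM, a log2 ratio of -0.35, an alternative chosen after seeing the data.

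Levels were higher in the read-derived table than in the gene table for all 5 members past the filter, by 1.54 to 1.75 times. All 5 were thus 1.5-fold or more apart between the tables, against 88.4% of 12275 genes. The median ratio of protein-coding genes past the filter was 1.73, and relative to it 0 of the 5 were 1.5-fold apart, against 8.20%. Gja1 averaged 192 ± 13.5 TPM in the read-derived table and 114 ± 7.67 TPM in the gene table (SD, n = 2 each). Its share of the members' summed TPM in the read-derived table, 88.4% and 87.7% in replicates 1 and 2, was close to that in the gene table, 88.4% and 87.8%.

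The transcripts of the members were resolved unevenly. The annotation holds 30 transcripts for the 10 genes, and 4 genes (Gja4, Gjb2, Gjd2 and Gjd3) have 1 each. Of the 6 with several, 4 had the same leading transcript by mean TPM in both transcript tables, and Gja1 and Gjb1 did not. For Gja5 this did not hold in replicate 2 alone, where Gja5-202 held 46.8% of the read-derived TPM and Gja5-201 36.8%. The transcripts that led in one or the other table for Gja1 (Gja1-201 and Gja1-206) and Gjb1 (Gjb1-201 and Gjb1-202) differ in their noncoding first exon and share the whole coding sequence, which lies in a single exon.

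For Gja1 the tables gave their counts to transcripts with different first exons. Gja1-201 begins at position 56377330 of chromosome 10, and Gja1-206 begins 1758 bases downstream, at 56379088. In the read-derived table Gja1-206 held 53.7% of the gene's TPM in replicate 1 and 51.3% in replicate 2, and Gja1-201 held 45.6% and 47.4%. In the alignment-derived table Gja1-201 held 98.9% and 99.1%, and Gja1-206 was at 0 TPM in both libraries. The libraries were close within each table, and the tables differed by the whole share of Gja1-206. Both transcripts have the same 1146 coding bases, so the coding sequence is the same on either placement, and the first exon in use is not resolved by these tables.

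The 250 bases before the RefSeq start of Gja1 (GRCm38.p6, chr10:56377050-56377299, plus strand) are shown because they lie upstream of Gja1-201, whose start is 30 bases past the RefSeq start, and not directly upstream of Gja1-206. Capitals mark TGANTCA, the AP-1 motif, and TGACGT, a partial cyclic AMP response element. CAAGGTCA, the motif of steroidogenic factor NR5A1, was searched too, all on both strands.
Gja1 upstream: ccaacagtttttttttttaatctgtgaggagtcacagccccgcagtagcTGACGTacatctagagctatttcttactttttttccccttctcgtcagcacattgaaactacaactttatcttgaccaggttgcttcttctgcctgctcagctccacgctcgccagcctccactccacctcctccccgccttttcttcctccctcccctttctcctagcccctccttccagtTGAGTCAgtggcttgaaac
TGANTCA and TGACGT were found once each, and CAAGGTCA was not in this window. Of 32851 upstream windows of this length in the RefSeq table, 6.75% held TGANTCA, 6.47% held TGACGT and 1.33% held CAAGGTCA, and these matches are a description of the letters only.

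Most Panx1 reads were placed on a transcript annotated as a target of nonsense-mediated decay. This transcript, Panx1-201, lacks 1 exon of the full-length coding transcript Panx1-202, chr9:15010036-15010256, whose 221 bases are not a multiple of 3. Panx1-201 held 46.9% and 48.9% of the gene's TPM in the read-derived table in replicates 1 and 2, and 48.0% and 40.3% in the alignment-derived table. Panx1-202 held 5.98% and 9.03% in the read-derived table and 4.93% and 5.33% in the alignment-derived table. By counts, which are not scaled by length, Panx1-201 held 65.0% and 55.7% in the read-derived table and 67.7% and 59.7% in the alignment-derived table. The longer Panx1-202 held 29.3% and 36.5% of the counts in the read-derived table and 22.1% and 25.5% in the alignment-derived table. The rest moved between short entries. The retained-intron entry Panx1-203 held 13.4% and 42.1% of the read-derived TPM from 4.29 and 12.3 counts, and 1.97% and 16.7% of the alignment-derived TPM. The 357-base fragment Panx1-204 held 33.7% and 0% of the read-derived TPM and 45.1% and 37.7% of the alignment-derived TPM. Shares of TPM for such short entries rest on few reads.

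For Gjc1, Gjc1-201 led in both tables, with 51.2% and 60.2% of the TPM in the read-derived table and 89.5% and 88.2% in the alignment-derived table. Gjc1-202 held 27.96% and 23.5% in the read-derived table and 0% in the alignment-derived table. Gjc1-203 reached 18.4% and 12.7% in the read-derived table. For Panx2 all TPM was on Panx2-203 in both tables.

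**Figure D4:**
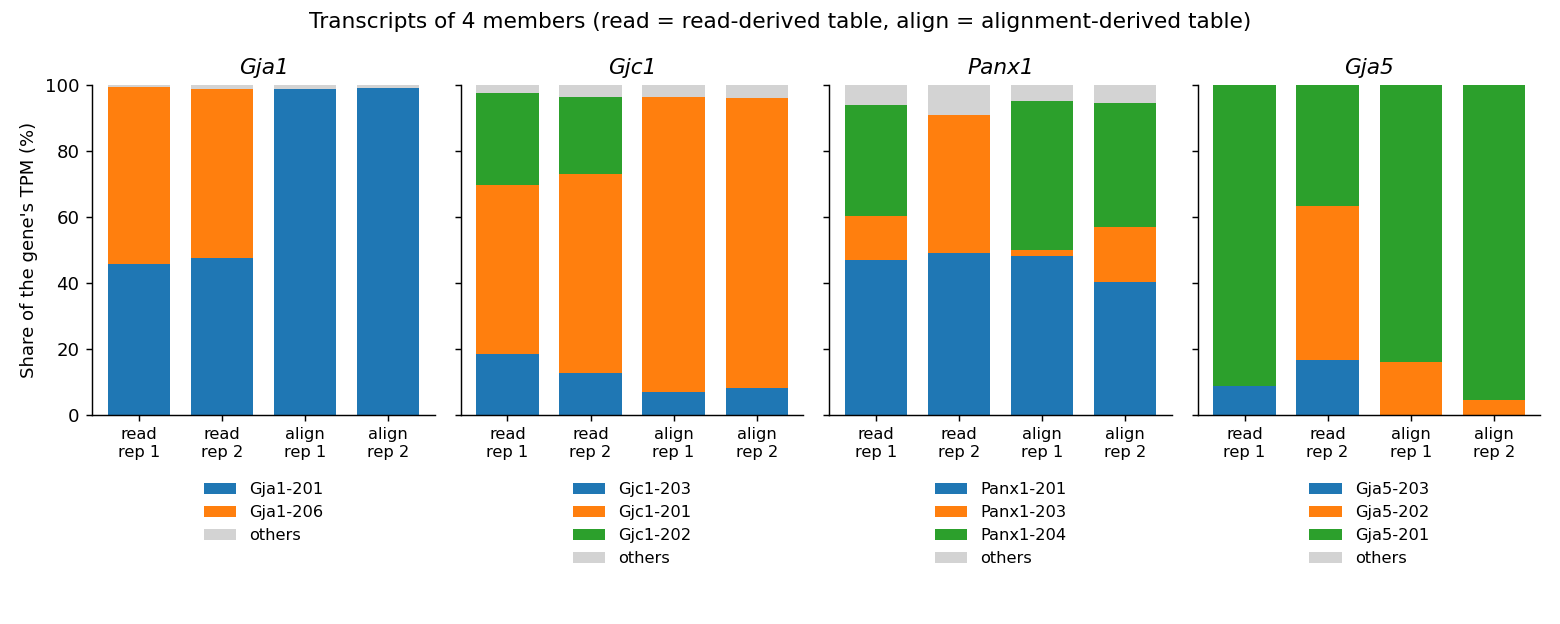
Share of each gene's TPM (%) held by its transcripts, for 4 genes, in the read-derived and the alignment-derived transcript table and both libraries, with transcripts under 10% everywhere drawn as others. Gja1 is divided between Gja1-206 and Gja1-201 in the read-derived table and is almost all Gja1-201 in the alignment-derived table, whereas Panx1-201 holds 40.3% to 48.9% of Panx1 in all 4 columns.

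The rest of the connexin and pannexin family was close to 0. None of the 13 other genes reached 1 TPM in either library, with values from 0 to 0.24 TPM, and 3 of them had 0 counts in both libraries. Together they held 38 counts in replicate 1 and 60 in replicate 2, fewer than Gjd2 alone. Their summed level was 0.53 and 0.71 TPM, whereas the 10 members summed to 135 and 123 TPM.

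Genes whose products anchor or regulate gap junctions were detected for 15 of 18, against 53.0% of protein-coding genes. Ctnnb1, the beta-catenin of adherens junctions, stood at 264 ± 1.45 TPM, Nedd4, a ubiquitin ligase that acts on Cx43, at 130.3 ± 2.52 TPM and Prkaca, the catalytic subunit of protein kinase A, at 93.1 ± 0.742 TPM (SD, n = 2 each). The kinases Mapk3 and Csnk1d, which phosphorylate Cx43, were at 46.5 ± 1.33 and 36.7 ± 2.16 TPM, and the caveolar protein Cav1 at 36.7 ± 4.999 TPM. The 3 genes below 1 TPM in both libraries were Ccn3, Tjp3 and Cdh1. Tjp1, the ZO-1 scaffold that binds the tail of Cx43, was at 22.8 and 27.3 TPM in replicates 1 and 2. Of the 15 listed genes with 200 or more summed counts, 0 were 1.5-fold apart between the libraries, where the share over all genes past that filter was 3.57%, so this count is near the background.

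Of 23 genes for receptors, enzymes and transport of ATP and adenosine, 8 were detected in both libraries, against 53.0% of protein-coding genes. Adora1, an adenosine receptor, was highest at 27.9 and 41.6 TPM in replicates 1 and 2, and the ATP-gated channel P2rx4 followed at 12.97 and 13.9 TPM. Entpd1 and Nt5e, the ectoenzymes that degrade ATP to adenosine, were at 6.955 ± 0.969 and 4.035 ± 0.00707 TPM. P2ry14, a receptor for UDP-sugars, was at 3.48 and 5.47 TPM in replicates 1 and 2, and P2ry6 at 1.56 and 2.02 TPM. P2rx7, a channel described as a partner of Panx1, was below 1 TPM in both, at 0.94 and 0.64 TPM. Of the 9 genes with 200 or more summed counts, only P2ry14 was 1.5-fold apart, higher in replicate 2, where 2.08% of the 12280 genes past that filter were higher by as much.

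**Figure D5:**
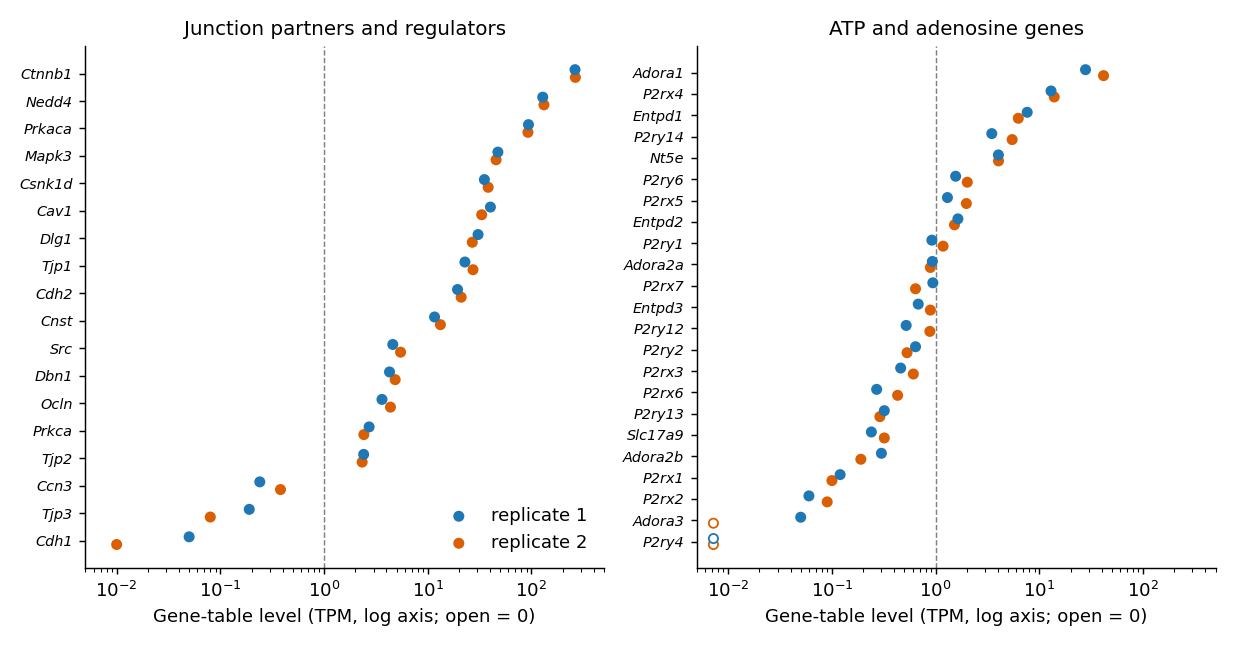
Level of each gene in the junction partner list and in the ATP and adenosine list (TPM, log axis), with 1 point per library, open points for 0 TPM and a dashed line at 1 TPM. Most partners lie above 1 TPM with both points close together, and Adora1 and P2rx4 lead the ATP and adenosine list.

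In mm10 with GENCODE M21, Gja1 (ENSMUSG00000050953.10) spans chr10:56377330-56402513 on the plus strand and Gja5 (ENSMUSG00000057123.14) chr3:96904693-97077416 on the plus strand, where it overlaps Gpr89 on the opposite strand. Gpr89 stood at 10.5 and 11.7 TPM in replicates 1 and 2. Only Gja5-203 has an exon there, at 96904693-96905389, since Gja5-201 and Gja5-202 start at 97032416. Gja5-203 had 0 counts in the alignment-derived table. Its 5.74 and 16.3 read-derived counts in replicates 1 and 2 are uncertain in the same way as those of Gjd2 from its overlap. The Gja5 transcripts together also share 798 stretches of 31 bases with Zfp697 and 135 with Gpr89, and Gja5-201 holds 18 shared stretches. The part of this sharing in the Gja5-203 counts was not tested. Gjb1 (ENSMUSG00000047797.14) lies at chrX:101376378-101385629 and Panx2 (ENSMUSG00000058441.7) at chr15:89059734-89073567, both on the plus strand. The other 6 are on the minus strand. They are Gjb2 (ENSMUSG00000046352.7, chr14:57098600-57104702), Gjc1 (ENSMUSG00000034520.14, chr11:102799579-102819700), Gjd3 (ENSMUSG00000047197.1, chr11:98982180-98983016), Gjd2 (ENSMUSG00000068615.4, chr2:114009601-114013619), Gja4 (ENSMUSG00000050234.7, chr4:127311421-127314039) and Panx1 (ENSMUSG00000031934.14, chr9:15002128-15045478).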

How the data were processed

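Per the labels, each library was made by a strand-preserving kit, and ERCC spike-ins meant for ribosomal-RNA-reduced libraries were added. The deposited gene and alignment-derived transcript tables hold an expected count and TPM, made from a transcriptome alignment on mm10 with GENCODE M21 per the text beside the files. The deposited read-derived transcript table holds an estimated count and TPM made from the reads. The deposited bounds of the TPM interval are a signal on the TPM scale. Their confidence level, the aligner, tool versions and whether counting used strand were not given in the sources used here. TPM are relative to all entries of a table, so a level depends on which RNAs that table counts.

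Symbols were mapped to gene IDs by the transcript names of the read-derived table. Its gene levels are sums over transcripts. Log2 ratios used TPM + 0.1, and calls required 1.5-fold and 200 or more summed counts. Expected counts were rounded for exact intervals and for scaling with edgeR 4.0.16 and DESeq2 1.42.0 in R 4.3.3. No model was fitted. Precision is limited by the total counts, 35684781 in replicate 1 and 38701795 in replicate 2. A floor of 3 counts was used. Python 3.11.15, numpy 2.4.6, pandas 2.3.3, scipy 1.17.1 and matplotlib 3.10.9 were used. Coding windows came from GENCODE M21 transcripts, and promoter sequence from the RefSeq table (GRCm38.p6), which held 7 of the 10 members.

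Members and lists were chosen with earlier results of these data known. Named were all members, other family members at 1 TPM or more, the 6 highest of the partner and purinergic lists with any gene 1.5-fold apart, and transcripts at 10% or more. Tjp1, Ccn3, Tjp3, Cdh1, P2rx7, the markers Alb, Efnb2, Hey1, Sox17 and Bmx, and Panx1-202 below that share, were named after their values were seen. With 2 libraries no genes were ranked by likeness.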

Additional observations from a re-analysis of the deposited data

How the results depend on the processing

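The count of 6 detected members was the same in the read-derived table, at 0.5 TPM, on TPM rescaled to nuclear protein-coding genes, and without either replicate. The count of members 1.5-fold apart between the libraries, 0 as reported, was 1 with 50 or more summed counts and 2 with no filter, and stayed 0 with a pseudocount of 1 TPM, TMM, DESeq2 size factors, ERCC counts, the read-derived table and a 2-fold threshold. The 5 members apart between the tables became 3 with a pseudocount of 1 TPM and 0 relative to the protein-coding median, chosen after seeing the data, and 4 to 5 without either replicate. The same transcript led in both tables for 8 members, of which 4 have 1 annotated transcript and could not differ. Without replicate 1 the count was 7, as Gja5-202 then led Gja5 in the read-derived table. Without replicate 2 it was 7, as Gjd3 had 0 counts in replicate 1. Of 50 log2 ratios of single members recomputed under other settings, 1 changed sign (Gja5, read-derived table, 0.46 against -0.71). Scaled by ERCC counts, the log2 ratio of Gja1 was -0.27, against -0.14 as reported. Levels in TPM depend on the table and the scale, with 8 of 10 moving beyond their SD in the read-derived table. Depth limits Gja5, Panx2, Gjb1 and Gjd3, which had 67 summed counts or fewer. No paired analysis was possible because the series has 1 group.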

Other observations

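The LRRC8 genes were more abundant than both pannexins in both libraries, and each calcium homeostasis modulator gene stood below Panx1. The 5 LRRC8 genes, whose products form the volume-regulated anion channel, were all detected. Lrrc8b stood at 35.7 and 38.7 TPM in replicates 1 and 2, Lrrc8d at 32.0 and 34.9 TPM, and Lrrc8a, the obligatory subunit, at 17.1 and 17.5 TPM. Lrrc8e and Lrrc8c were lower, at 7.80 ± 0.679 and 7.34 ± 0.120 TPM (SD, n = 2 each). Of the 6 calcium homeostasis modulator genes in the list, only Calhm2 reached 1 TPM in both libraries, at 1.165 ± 0.120 TPM, and 3 had 0 counts in both. Each of the 5 LRRC8 genes was above Panx1, which averaged 3.02 TPM, in both libraries, and 0 of the 6 detected large-pore genes were 1.5-fold apart between the libraries, where the share over all genes past the filter was 3.57%.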
